A study of Mus musculus with 5 samples.

Results

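Across the p300 and c-Jun peak lists of MS5 cells, 1229 sites carried 1 antibody without pioglitazone and the other antibody with it. To find them, the peaks of all 4 lists were merged wherever they overlapped by at least 1 bp, which gave 44718 sites, and sites present in exactly 2 lists, 1 of each antibody and 1 of each treatment, were kept. The sites were thus chosen by the lists that hold a peak there, and both counts below follow from that choice. At 784 of the 1229, p300 was listed without pioglitazone and c-Jun with it, and these are called p300-to-c-Jun sites. At the other 445, c-Jun was listed without pioglitazone and p300 with it, and these are called c-Jun-to-p300 sites. The words swap, lost and gained describe the lists and not a measured exchange of proteins on the same DNA molecule.

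The lists come from chromatin immunoprecipitation followed by sequencing (ChIP-seq) in MS5, an established mouse bone marrow stromal cell line, at passage 11. The cells of all 4 ChIP libraries had been given 10 ng/mL TGF-β1 over 5 h. The libraries are p300 with TGF-β1 alone, p300 with TGF-β1 and pioglitazone at 20 ng/mL, c-Jun with TGF-β1 alone, and c-Jun with TGF-β1 and pioglitazone. A pooled input completes the 5 samples and has no list here, and the libraries include no cells without TGF-β1, so pioglitazone is seen only on top of the cytokine. MS5 is a single line, and peak lists hold no expression values with which its stromal identity could be checked.

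p300 is a histone acetyltransferase and coactivator. It does not read a DNA sequence of its own but is brought to enhancers and promoters by transcription factors, among them the SMAD proteins that carry the TGF-β signal and AP-1. c-Jun is a subunit of AP-1, a dimeric transcription factor that binds DNA directly and is activated by stress and growth factor kinases and by TGF-β. In fibroblasts and stromal cells AP-1 and p300 are often found together at active enhancers of matrix and cytokine genes. Pioglitazone activates PPARγ, a nuclear receptor that drives adipocyte genes and can oppose inflammatory and fibrotic gene programmes. The study's title concerns such agonists in myelofibrosis, the fibrous replacement of bone marrow.

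Each combination of antibody and treatment is 1 library, so no difference between treatments has a replicate check and none was tested. Every interval below is a 95% interval that covers counting error only. Without pioglitazone the lists were longer, at 31466 peaks for p300 and 17044 for c-Jun, than with it, at 21994 and 13325. The sequencing depth is unknown. The deposited score is 1 for every peak, so the row of a peak in its list, given as a percentile in which 0 is the top, is the only graded value. What this row order reflects is not stated, so a row is a place in the list and not a measured strength. Positions are mm9. No mm9 sequence or gene annotation was used here, so sites are given by position, without genes, motifs or sequence.

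The 784 p300-to-c-Jun sites were 1.75% of all sites and the 445 c-Jun-to-p300 sites 0.995%. These shares are fixed by the rule that chose the sites and are a description. Loss from the list of the same antibody was common everywhere. Of all p300 sites without pioglitazone, 48.5% were not listed for p300 with it, and of all p300 sites with pioglitazone 26.3% were not listed without it. For c-Jun, 53.7% of the sites without pioglitazone were not listed with it, and 40.8% of the sites with it were not listed without it. Every swap site consisted of exactly 2 peaks, 1 per antibody. Both directions were smaller classes than the 1888 sites that held both antibodies without pioglitazone only, and both were larger than the 313 sites that held both antibodies with pioglitazone only.

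**Figure D1:**
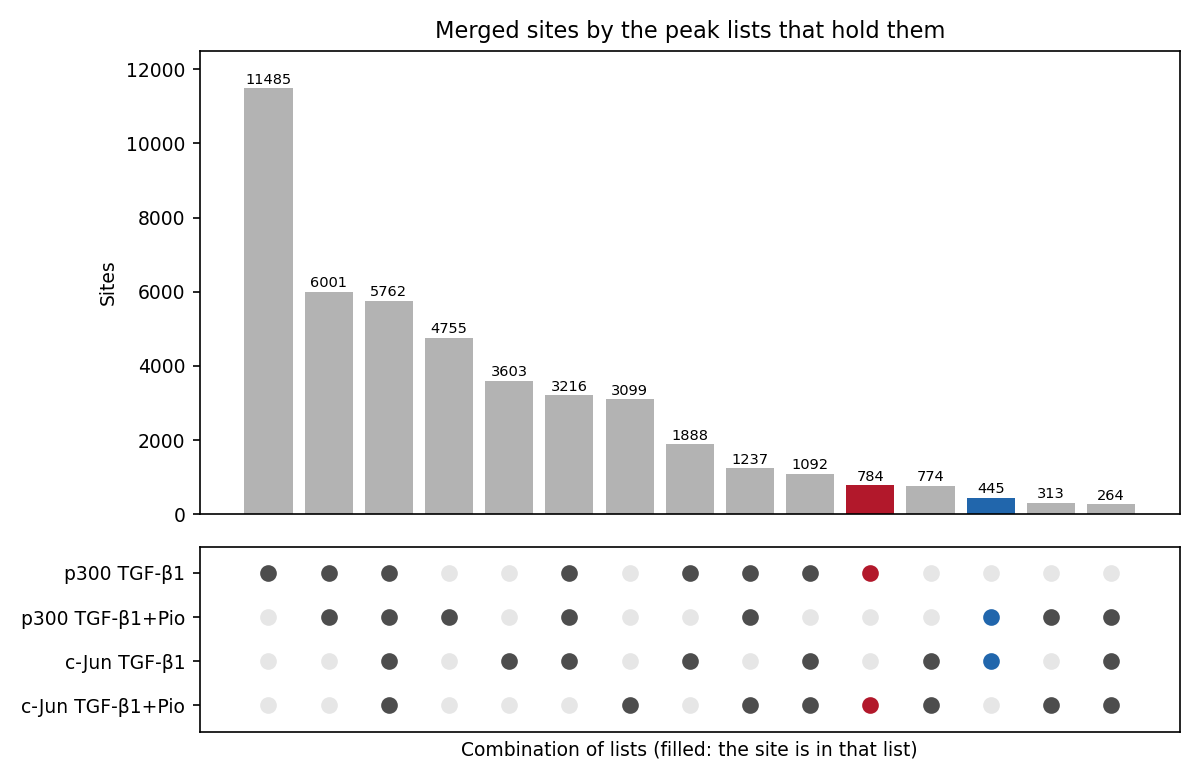
Number of merged sites (y axis) for each of the 15 combinations of the 4 peak lists (filled circles show the lists that hold the site; Pio is pioglitazone). The p300-to-c-Jun class in red holds 784 sites and the c-Jun-to-p300 class in blue 445, between the 1888 sites with both antibodies without pioglitazone only and the 313 with both antibodies with pioglitazone only.

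The share of the 2 directions moved with how the lists were shortened. p300-to-c-Jun sites made up 63.8% (61.0 to 66.5) of the 1229. When the p300 lists were shortened from the end to the same length in both treatments, and the c-Jun lists likewise, 602 p300-to-c-Jun and 500 c-Jun-to-p300 sites were found, and the share was 54.6% (51.6 to 57.6). When all 4 lists were shortened to the 13325 rows of the shortest, the order turned, with 377 p300-to-c-Jun and 468 c-Jun-to-p300 sites, 44.6% (41.2 to 48.0). The sites themselves also changed. Of the 784, 500 remained at lengths equal between treatments and 191 with all lists at the shortest length, and of the 445, 334 and 186 remained. The rest left the class because a peak was removed, and sites entered it for the same reason. Shortening every list by the same proportion moved the share the other way, to 67.4% in the first 75% of rows, 67.1% in the first 50% and 70.8% in the first 25%. Of the 13 alternative settings run, the order of the directions turned in 1, with all 4 lists at the shortest length.

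Seen from each list, the partner peak of the other treatment was not rare. Sites listed in only 1 list of an antibody, with exactly 1 list of the other antibody, can carry that other antibody in the same treatment or in the opposite one. Among the 758 such sites of the p300 list with pioglitazone, the c-Jun peak was from the opposite treatment in 445, 58.7% (55.1 to 62.2). For the 1097 such sites of the c-Jun list with pioglitazone, the p300 peak was from the opposite treatment in 784, 71.5% (68.7 to 74.1). In the lists without pioglitazone the shares were 29.3% (27.6 to 31.1) of 2672 p300 sites and 19.1% (17.5 to 20.7) of 2333 c-Jun sites. In both treatments the partner peak thus came more often from a list without pioglitazone, and those lists are the longer ones. With all lists at the shortest length the 4 shares came closer together, at 51.7% (48.4 to 55.0) and 46.3% (42.8 to 49.8) for the p300 and c-Jun lists with pioglitazone and 36.5% (33.6 to 39.5) and 41.6% (38.7 to 44.6) for those without.

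Swap sites stood in the middle and lower parts of their lists. At p300-to-c-Jun sites the p300 peak had a median position of 60.5% (quartiles 43.1 and 77.7), from row 1029 to row 31462 of 31466. The c-Jun peak had a median position of 66.1% (43.1 and 83.9), from row 635 to row 13324 of 13325. At c-Jun-to-p300 sites the medians were 62.4% (42.8 and 81.7) for p300 and 62.4% (42.6 and 78.2) for c-Jun. Peaks alone in 1 list stood lower, with medians of 73.3% and 75.2% for p300 without and with pioglitazone and 74.4% and 71.6% for c-Jun. Sites of all 4 lists stood far higher, with medians between 16.2% and 33.3%. Sites with both antibodies in 1 treatment only had medians near those of the swap sites: 61.7% for p300 and 66.3% for c-Jun without pioglitazone, and 64.3% and 59.3% with it.

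Few swap sites were near the top of both lists. Both peaks were in the first 50% of rows at 154 of 784 p300-to-c-Jun sites, 19.6% (16.9 to 22.6), and at 79 of 445 c-Jun-to-p300 sites, 17.8% (14.3 to 21.6). Neither was in the first 50% at 418 and 226 sites, 53.3% and 50.8%. In each direction 2 sites had both peaks in the first 10%. Positions of the p300 and c-Jun peaks went together across sites, with a Spearman's rho of 0.46 over 784 sites and 0.49 over 445, and rho was 0.49 and 0.43 at sites with both antibodies without and with pioglitazone only. These correlations are descriptions across sites of the same libraries.

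**Figure D2:**
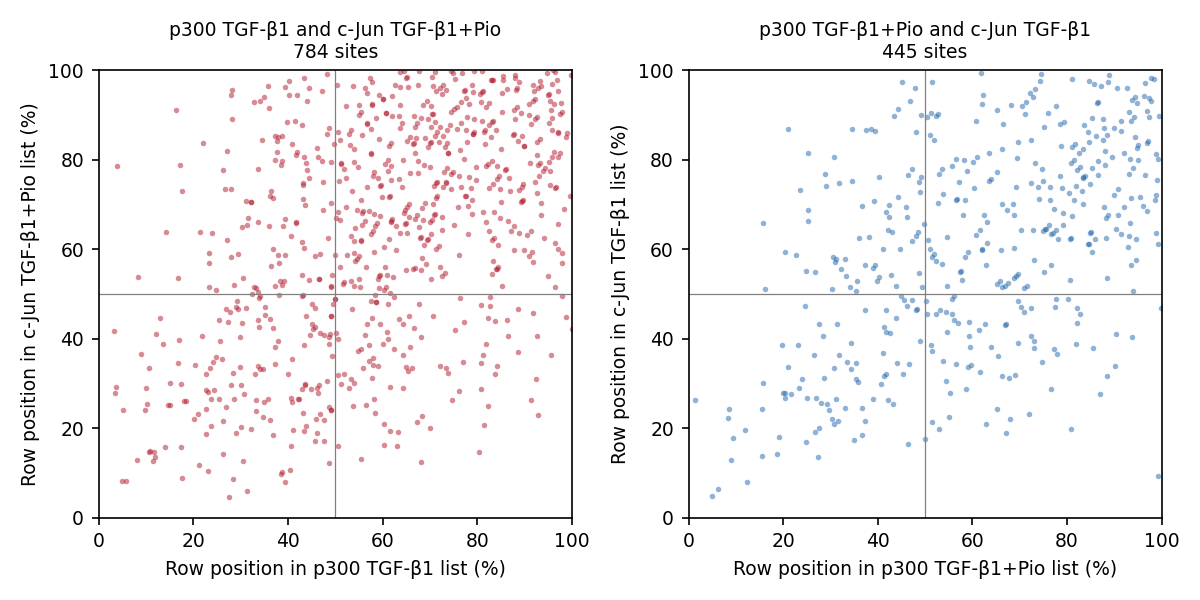
Row position of the p300 peak (x axis) and of the c-Jun peak (y axis) of each swap site, as a percentile of its list with 0 at the top; each point is 1 site, red for p300-to-c-Jun (784) and blue for c-Jun-to-p300 (445), and grey lines mark 50%. Points thin out towards the top of both lists, where 154 red and 79 blue sites have both peaks in the first 50%.

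Among sites alone in a p300 list or swapping from it, the share that swapped was lower towards the end of the list. Among sites that were either alone in the p300 list without pioglitazone or p300-to-c-Jun, 6.39% (5.96 to 6.84) of 12269 swapped, from 11 of 67 in the first 10% of rows, 16.4% (8.49 to 27.5), to 80 of 2465 in the last, 3.25% (2.58 to 4.02). Among sites alone in the p300 list with pioglitazone or c-Jun-to-p300, 8.56% (7.81 to 9.35) of 5200 swapped, from 23.3% (9.93 to 42.3) in the first 10% to 4.99% (3.81 to 6.41) in the last. The first 10% of rows held few such sites, 67 and 30, and the intervals there are wide. Over all sites of a p300 list the share was lowest in the first 10%. Without pioglitazone swap sites were 0.350% of all sites there, 3.72% in step 7 of 10 and 2.54% in the last 10%. With pioglitazone they were 0.318% in the first and 2.64% in the last 10%.

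From the c-Jun side the directions differed more. Among sites alone in the c-Jun list with pioglitazone or p300-to-c-Jun, 20.2% (18.9 to 21.5) of 3883 had p300 without pioglitazone. Among sites alone in the c-Jun list without pioglitazone or c-Jun-to-p300, 11.0% (10.0 to 12) of 4048 had p300 with pioglitazone. The difference was 9.20 percentage points (7.59 to 10.8). In the first 10% of rows the shares were 21.1% (9.55 to 37.3) of 38 sites and 16% (4.54 to 36.1) of 25, with wide intervals. The shares were highest between 20% and 30% of the list, at 33.3% (27.0 to 40.1) and 22.4% (16.2 to 29.6). In the last 10% they were 17.3% (14.6 to 20.4) and 5.49% (4.02 to 7.30). The p300 list without pioglitazone, the partner of the first group, is the longer of the p300 lists, and this comparison was made at full list length only.

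**Figure D3:**
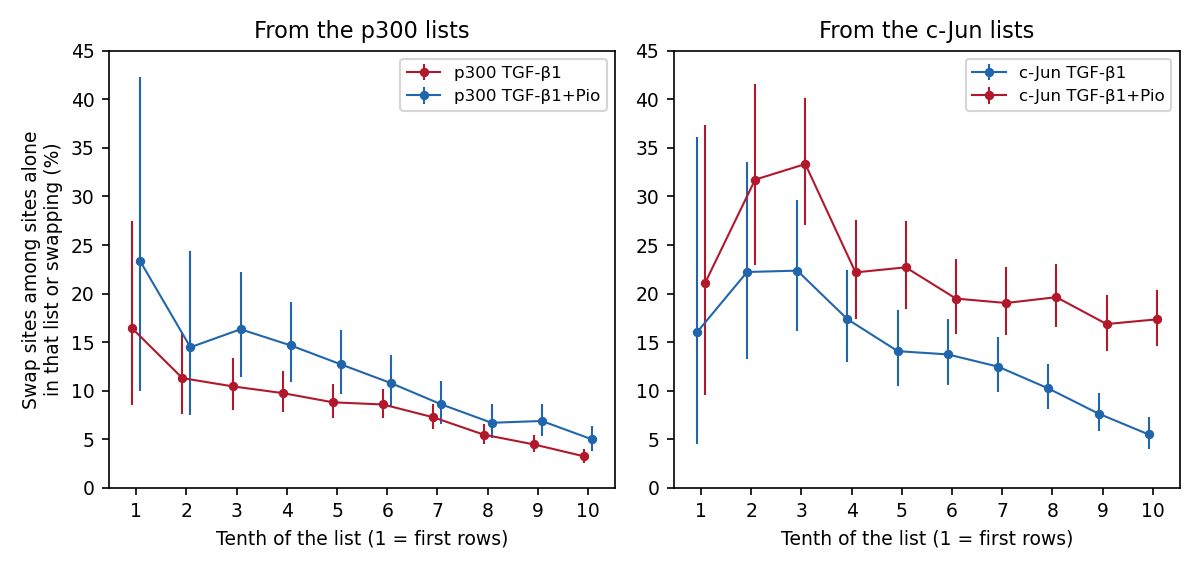
Share of swap sites (y axis, %) among the sites that are alone in a list or swap from it, in 10 equal steps of that list (x axis, 1 holds the first rows), for the p300 lists (left) and the c-Jun lists (right); red is p300-to-c-Jun, blue c-Jun-to-p300, bars are exact 95% intervals. The share goes from 16.4% to 3.25% along the p300 list without pioglitazone, and in the last step of the c-Jun lists it is 17.3% with and 5.49% without pioglitazone.

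The p300-to-c-Jun site highest in both lists lay at chr16:24495593-24495888. Its p300 peak was at row 1522 of the list without pioglitazone and its c-Jun peak at row 1083 of the list with it, with centres 55 bp apart. No p300 peak with pioglitazone lay closer than 2825.5 bp to its centre and no c-Jun peak without pioglitazone closer than 4646.5 bp. The next site, at chr1:136913521-136913862, had p300 at row 1809 and c-Jun at row 1096, and centres 101 bp apart. Its nearest peaks of the 2 lists it was missing from were 4127.5 and 4155.5 bp away. These are the 2 p300-to-c-Jun sites with both peaks in the first 10%, and at both the missing lists had no peak within 1 kb.

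The next p300-to-c-Jun sites in this order differed in how near the missing lists were. At chr10:43360951-43361215 p300 was at row 3618 and c-Jun at row 1702, with centres 24 bp apart and the missing lists over 6 kb away. At chr17:26667750-26668001 the rows were 2579 and 1715, the centres 11 bp apart, and the nearest p300 peak with pioglitazone 1107.5 bp away. At chr6:82703108-82703410 the rows were 3362 and 1949 and the centres 62 bp apart. Chromosome 8 held 3 of the 10 highest sites, at chr8:14601349-14601620, chr8:124751304-124751550 and chr8:125429314-125429578. At the last 2 of these the centres were 6 and 24 bp apart, and p300 with pioglitazone was listed 1923 and 1032 bp away. The sites at chr18:75526118-75526380 and chr9:14576604-14576894 had the missing p300 peak closest, with p300 with pioglitazone listed 489 and 483 bp from their centres.

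The c-Jun-to-p300 site highest in both lists lay at chr6:91152640-91152905. Its c-Jun peak was at row 839 without pioglitazone and its p300 peak at row 1110 with it, with centres 28 bp apart. A p300 peak without pioglitazone lay 593.5 bp from its centre, and c-Jun with pioglitazone was listed 4915.5 bp away. At chr15:97879708-97880007 c-Jun was at row 1090 and p300 at row 1367, with p300 without pioglitazone 303.5 bp away and c-Jun with pioglitazone 43813.5 bp away. So at both of the c-Jun-to-p300 sites in the first 10% of the 2 lists, p300 was also listed nearby without pioglitazone. The third, at chr15:101904056-101904340, was isolated: c-Jun stood at row 1356, p300 at row 2737, no other site lay within 10 kb, and the missing p300 and c-Jun lists were 17743 and 27861 bp away.

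Of the other 7 highest c-Jun-to-p300 sites, 5 had a p300 peak without pioglitazone within 1 kb. At chr5:143818151-143818431 it was 764 bp away, at chr15:96660828-96661257 556.5 bp, at chr6:108394505-108394915 506 bp, at chr18:36652881-36653164 662.5 bp and at chr7:87973394-87973642 281 bp. The remaining 2, at chr1:93146746-93147050 and chr11:69225139-69225445, had it 1920 and 5897 bp away. Among the 10 highest c-Jun-to-p300 sites, 7 thus had p300 without pioglitazone within 1 kb, and among the 10 highest p300-to-c-Jun sites 3 had p300 with pioglitazone within 1 kb.

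The same held over all members at full list length. A p300 peak of the other treatment lay within 1 kb of the centre of 118 of 445 c-Jun-to-p300 sites, 26.5% (22.5 to 30.9), and of 97 of 784 p300-to-c-Jun sites, 12.4% (10.1 to 14.9). The difference was 14.1 points (9.38 to 19.0). With lengths equal between treatments, where part of the members also differ, the shares were 14% (11.1 to 17.4) and 14.5% (11.7 to 17.5). Among members with both peaks in the first 50% of rows they were 38.0% (27.3 to 49.6) and 16.9% (11.3 to 23.8). Here the distances were again to the full p300 lists, which differ in length. The median distance to that p300 peak was 6384 bp for c-Jun-to-p300 and 15126.2 bp for p300-to-c-Jun sites. Sites alone in the p300 list with pioglitazone had a p300 peak without it within 1 kb in 20.5% (19.4 to 21.7), 5.97 points (1.76 to 10.5) below the c-Jun-to-p300 sites. For sites alone in the p300 list without pioglitazone the share was 8.42% (7.92 to 8.94), 3.95 points (1.67 to 6.51) below the p300-to-c-Jun sites. In both directions a p300 peak of the other treatment was thus near swap sites more often than near sites with p300 alone. The latter also stood lower in their lists, and the part of list position in this was not tested.

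For c-Jun the shares were also compared. A c-Jun peak of the other treatment lay within 1 kb of 62 of 445 c-Jun-to-p300 sites, 13.9% (10.9 to 17.5), and of 70 of 784 p300-to-c-Jun sites, 8.93% (7.03 to 11.1). The difference was 5.00 points (1.21 to 9.05), and at lengths equal between treatments the shares were 12% (9.28 to 15.2) and 8.47% (6.37 to 11.0). Among members with both peaks in the first 50% of rows they were 26.6% (17.3 to 37.7) and 11.0% (6.56 to 17.1), with distances to the full c-Jun lists. Sites alone in the c-Jun list without pioglitazone had a share of 7.30% (6.47 to 8.20), which was 6.63 points (3.42 to 10.3) below that of the c-Jun-to-p300 sites. The p300-to-c-Jun sites and the sites alone in the c-Jun list with pioglitazone, at 10.3% (9.25 to 11.4), differed by -1.37 points (-3.57 to 1.09). Counting either missing list, 136 c-Jun-to-p300 sites (30.6%) and 128 p300-to-c-Jun sites (16.3%) had one of the absent peaks within 1 kb. The remaining 309 and 656 sites had neither within that distance.

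The distance between the p300 and c-Jun centres also separated the directions. It had a median of 50 bp (46 to 53; quartiles 22 and 92) at p300-to-c-Jun sites and of 66 bp (57 to 71; quartiles 30 and 117) at c-Jun-to-p300 sites. Centres were within 25 bp of each other at 215 p300-to-c-Jun sites, 27.4% (24.3 to 30.7), and at 93 c-Jun-to-p300 sites, 20.9% (17.2 to 25), a difference of -6.52 points (-11.5 to -1.40). They were over 100 bp apart at 21.7% (18.8 to 24.7) and 29.4% (25.2 to 33.9). Sites with both antibodies in 1 treatment only gave almost the same values as the swap direction that shares their p300 list: 48.5 bp without pioglitazone and 63 bp with it. Grouped by p300 list, the medians were 48.5 and 50 bp for p300 without pioglitazone and 63 and 66 bp for p300 with it. Peak widths differ between these lists, 247 and 227 bp, and with all peaks set to 200 bp the swap sites had medians of 48 and 61 bp.

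At the 5762 sites of all 4 lists the order was the same and the gap smaller. The median distance from p300 without pioglitazone was 36 bp to c-Jun without and 39 bp to c-Jun with pioglitazone, and from p300 with pioglitazone 43 and 46 bp. At lengths equal between treatments the medians of the swap sites were 47 bp (43 to 52) and 60.5 bp (54 to 70), p300-to-c-Jun first.

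**Figure D4:**
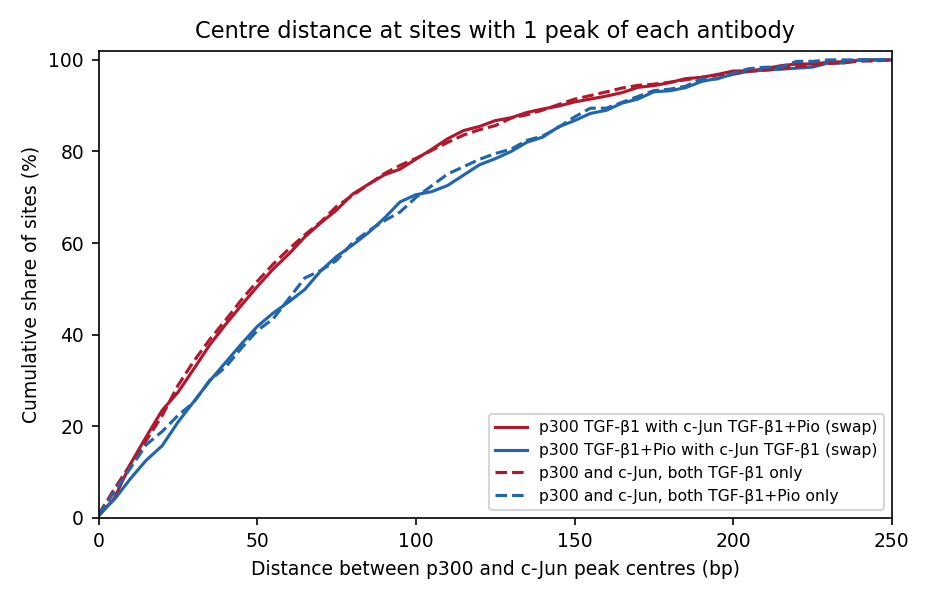
Cumulative share of sites (y axis, %) by the distance between the p300 and c-Jun peak centres (x axis, bp), for both swap directions (solid) and for sites with both antibodies in 1 treatment only (dashed); red uses the p300 list without pioglitazone, blue the one with it. The curves pair by p300 list: medians are 50 and 48.5 bp in red and 66 and 63 bp in blue.

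The overlap of the 2 peaks ranged from 2 to 235 bp at p300-to-c-Jun sites and from 1 to 227 bp at c-Jun-to-p300 sites, with medians of 191 and 172 bp. At 48 p300-to-c-Jun and 45 c-Jun-to-p300 sites one peak lay wholly inside the other, so that many sites tie for the largest overlap. The 3 named in each direction were taken from these ties by the smallest centre distance, which was 0 bp. They were chr13:64540867-64541113, chr3:82161749-82161995 and chr1:159436703-159436949 for p300-to-c-Jun. In the other direction they were chr2:29056804-29057052, chr4:100449776-100450024 and chrX:45776848-45777096 for c-Jun-to-p300. Just inside the limit, peaks overlapped by 2 bp at chr2:70346854-70347333 and by 3 and 4 bp at chr9:33899066-33899544 and chr2:71380700-71381177 for p300-to-c-Jun. For c-Jun-to-p300 they overlapped by 1 bp at chr4:40800514-40800988 and by 2 bp at chr17:53618989-53619462 and chr15:33179913-33180386. Just outside it, a p300 peak without and a c-Jun peak with pioglitazone abutted with no gap where the p300 peaks were chr6:99138509-99138755 and chr9:95307402-95307648, and lay 2 bp apart where it was chr8:70695332-70695578. Gaps of 0, 1 and 7 bp were seen for the other direction at the p300 peaks chr2:18919441-18919667, chr1:95531717-95531943 and chr15:75760153-75760379. Only 4 and 5 members overlapped by 10 bp or less, and 6 and 3 pairs missed with a gap within 10 bp. Few memberships thus turn on 10 bp between the 2 listed peaks. Membership also needs the missing lists not to touch the site, and near touches by their peaks were not counted. A peak of a missing list lay within 500 bp of the centre of 65 and 79 members. A rule on centre distance moves more of them, since 170 and 131 members had centres over 100 bp apart. Other sites enter under such a rule, and with centres within 100 bp the counts were 785 and 501.

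Swap sites of opposite direction were found next to each other. Within 1 kb there were 20 such pairs, on 14 chromosomes, made of 20 different sites of each direction, 2.55% (1.57 to 3.91) of the p300-to-c-Jun and 4.49% (2.77 to 6.86) of the c-Jun-to-p300 sites. Pairs of the same direction within 1 kb numbered 1 for p300-to-c-Jun, at 818 bp, and 1 for c-Jun-to-p300, at 563 bp. A same-direction pair needs 2 close peaks in each of 2 lists, while an opposite pair takes 1 peak from each of the 4. These counts are therefore not like for like. By the definition of an opposite pair, all 4 lists hold a peak within a short stretch and the antibodies cross. In each pair p300 is listed on one side without and on the other side with pioglitazone, and c-Jun the reverse. Between treatments the p300 centre differed by 275 to 819 bp (median 456) and the c-Jun centre by 262 to 1051 bp (median 413.5). The p300-to-c-Jun site was the one with the lower coordinate in 11 of 20 pairs.

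The pair with the best value of the lowest-placed of its 4 peaks was on chromosome 19, with the p300-to-c-Jun site at chr19:10087215-10087534 and the c-Jun-to-p300 site at chr19:10087569-10087945. Its p300 peaks were at rows 1107 without and 307 with pioglitazone, 344 bp apart, and its c-Jun peaks at rows 4490 without and 3718 with it, 404 bp apart. A pair at chr17:45710632-45710989 and chr17:45710163-45710461 had all 4 peaks in the first 50% of rows as well, with p300 at rows 12799 and 5864 and c-Jun at rows 3254 and 3580. In each of the remaining 18 pairs at least 1 of the 4 peaks stood in the lower 50% of its list. The closest pair, 300.5 bp between centres, was at chr7:87973075-87973360 and chr7:87973394-87973642, with the p300-to-c-Jun site first. The next pair, at 308 bp, was chr10:26093485-26093777 and chr10:26093193-26093453. The one after it, at 315 bp, was chr15:91445665-91445953 and chr15:91445989-91446259.

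Crossed pairs were about as many as pairs in which both antibodies were listed at one place without and at a neighbouring place with pioglitazone. A site with both antibodies without pioglitazone only lay within 1 kb of a site with both antibodies with it only in 21 cases, which took in 1.11% (0.690 to 1.70) of the 1888 sites of the first kind and 6.71% (4.20 to 10.1) of the 313 of the second. Pairs with 1 antibody were more numerous, and are drawn from larger classes. A p300 peak alone without pioglitazone lay within 1 kb of one alone with it in 508 pairs, and c-Jun peaks alone did so in 81.

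**Figure D5:**
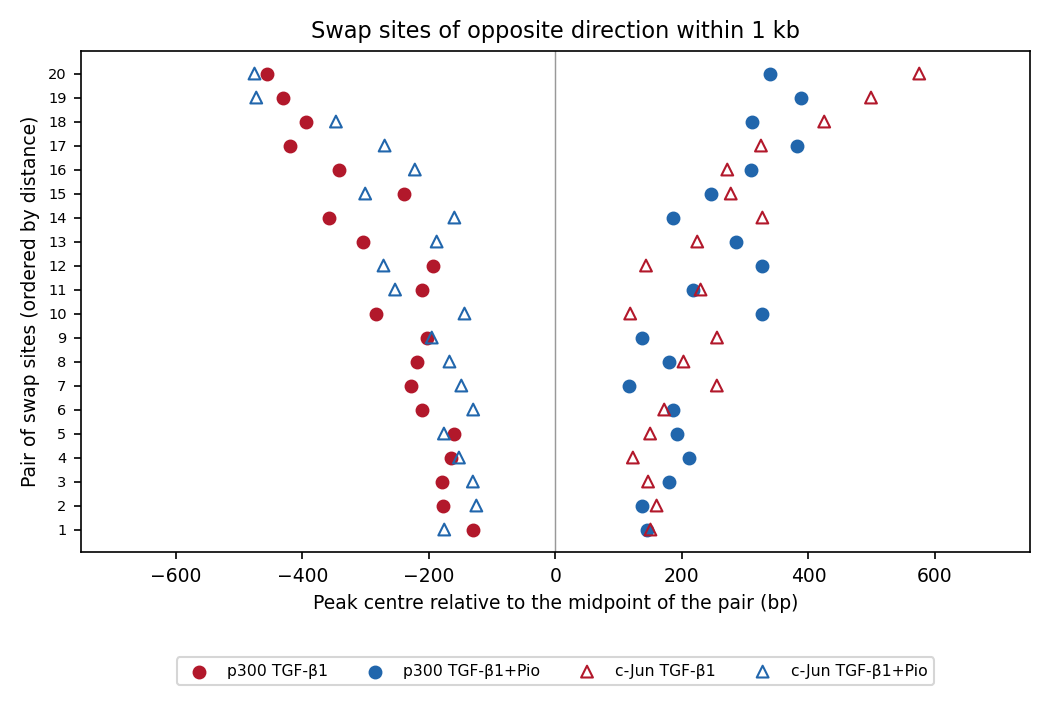
Peak centres of the 4 lists (x axis, bp from the midpoint of the pair) in the 20 pairs of opposite swap sites within 1 kb (y axis, ordered by distance, each oriented with the p300-to-c-Jun site on the left); circles are p300, triangles c-Jun, red without and blue with pioglitazone. By the definition and orientation of the pairs, p300 without and c-Jun with pioglitazone lie on the left, and p300 with and c-Jun without it on the right. Site centres are 300.5 to 925.5 bp apart.

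Over 10 kb the surroundings were compared with those of all sites. No other site of any kind lay within 10 kb of 40.7% (37.2 to 44.2) of p300-to-c-Jun and 31.2% (27.0 to 35.8) of c-Jun-to-p300 sites, against 39.8% of all sites, and the directions differed by -9.45 points (-15.0 to -3.75). The split was not particular to swap sites. At sites with both antibodies without and with pioglitazone only, the shares were 41.8% and 24.9%. At sites with p300 alone they were 44.6% without and 36.8% with it, and at sites with c-Jun alone 38.6% and 39.0%. A site of all 4 lists was within 10 kb of 9.57% (7.60 to 11.8) and 12.4% (9.45 to 15.8), against 11.2% of all sites, and here the difference between directions was 2.79 points (-0.903 to 6.74). A site with p300 in both treatments was within 10 kb of 27.3% and 31.2%, and one with c-Jun in both treatments within 10 kb of 13.4% and 16.6%. Over all sites these shares were 29.4% and 15.4%. A swap site of the opposite direction lay within 10 kb of 31 p300-to-c-Jun and 33 c-Jun-to-p300 sites, 3.95% (2.70 to 5.57) and 7.42% (5.16 to 10.3), where 1.11% and 1.64% of all sites had a c-Jun-to-p300 and a p300-to-c-Jun site that close.

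Swap sites were spread over 20 of 21 chromosomes, all but the Y, which held 3 sites of any kind. At full list length p300-to-c-Jun sites outnumbered the other direction on 19 of them. Counts per chromosome were not made with shortened lists, in which the share of this direction over all chromosomes moved. The highest share of p300-to-c-Jun among all sites of a chromosome was on chromosome 7, 64 of 2641 or 2.42% (1.87 to 3.08), and the lowest of the 20 on chromosome 19, 14 of 1445 or 0.969% (0.531 to 1.62). For c-Jun-to-p300 the lowest share was 0.681% (0.373 to 1.14), found for chromosome 4, and the highest was 1.28% (0.794 to 1.95), for chromosome 14. Chromosome 19 was the exception in direction, with 14 p300-to-c-Jun and 18 c-Jun-to-p300 sites, 43.8% (26.4 to 62.3). On chromosomes 4 and 13 p300-to-c-Jun made up 75% of 56 and of 60 swap sites (61.6 to 85.6 and 62.1 to 85.3). These are extremes among 20 chromosomes, and the intervals of most overlap.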

How the data were processed

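ChIP-seq of p300 and c-Jun was deposited as 1 peak list per library. Per the submitters' processing notes Bowtie2 (2.3.4.3), SAMtools (1.9) and HOMER were used with mm9, with roles, peak calling settings and input use not given in the sources used here. The deposited score is 1 for every peak. The other deposited values are starts and ends, with 1 peak width per list (227 to 249 bp). On chromosome 7, 42 to 103 peaks per list lay beyond the last GRCm38 gene, so the GRCm38 tables at hand were not used.

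Peaks were merged in Python (3.11.15; numpy 2.4.6, pandas 2.3.3, scipy 1.17.1). bedtools (2.31.1) gave the same 44718, 784 and 445 sites, and the merging recovered all 646 and 297 swap sites among 38014 simulated sites. The simulated sites had no close neighbours and their peaks overlapped widely, so crowded sites and small overlaps were not covered. Shares carry exact (Clopper-Pearson) intervals, medians order-statistic intervals, and differences intervals combined from the exact ones. Neighbour distances are from site centre to peak centre, in bp. Named sites are the 10 per direction with the best value of the worse of their 2 row percentiles, the 3 with the largest (ties by centre distance) and smallest overlaps, the 3 nearest misses, and the 3 closest opposite pairs; the pairs on chromosomes 19 and 17 were added after their values were seen, as was the comparison of opposite pairs within 1 kb. The planned motif, promoter and gene list comparisons were not run. The members and rules were chosen with earlier results of these data known.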

Additional observations from a re-analysis of the deposited data

Results flagged for a closer look

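By the rule that chose them, the 2 antibodies moved in opposite directions between the treatments at every swap site, and this is why they are listed here: p300 was lost and c-Jun gained at 784 sites, and c-Jun was lost and p300 gained at 445. The difference was not tested, since each group is 1 library.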

How the results depend on the processing

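No paired analysis was possible because each group is 1 library, and for the same reason none could be left out. Under 13 alternative settings p300-to-c-Jun sites were the more frequent direction in 12, the exception being all lists at the shortest length. Of 91 recomputed values 52 stayed within 1.5 times (counts) or within the interval of the value reported. Settings that changed only the overlap or the peak width gave 763 to 799 p300-to-c-Jun and 399 to 501 c-Jun-to-p300 sites. For these settings only the counts were compared, not which sites were members. With no peak of the missing lists within 500 bp 719 and 366 sites remained, and with none within 1000 bp 656 and 309 (68.0% p300-to-c-Jun). Rows decided most. The first 50% of each list gave 371 and 182 sites (67.1%), the first 75% 67.4%, and the first 25% 143 and 59 (70.8%), the last 2 settings added after the data were seen. With presence required in the first 50% and absence from the full list, 154 and 79 sites remained. With all lists at the shortest length 377 p300-to-c-Jun sites were found, 44.6% of swap sites, and 54.6% at lengths equal between treatments.

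The settings of this paragraph were also added after the data were seen. The share of opposite-treatment partners for p300 without, p300 with, c-Jun without and c-Jun with pioglitazone was 40.4%, 47.9%, 36.0% and 52.5% at equal lengths, 36.5%, 51.7%, 41.6% and 46.3% at the shortest length, and 25.9%, 64.1%, 12.6% and 81.2% in the first 25%. In the first 50% it was 17.0% for c-Jun without pioglitazone. At equal lengths 14% of c-Jun-to-p300 sites had p300 without pioglitazone within 1 kb. A swap site of the opposite direction was near 2.55% and 4.49% within 1 kb and 6.51% and 11.9% within 50 kb, p300-to-c-Jun first.

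Among members in the first 50% of both lists, a p300 peak of the other treatment lay within 1 kb of 16.9% of p300-to-c-Jun and 38.0% of c-Jun-to-p300 sites, and a c-Jun peak with pioglitazone of 26.6% of the latter. These distances were to the full lists, which differ in length. With centres within 100 bp the median p300 position of c-Jun-to-p300 sites was 57.9%. A site of all 4 lists lay within 5 kb of 4.85% and 5.84% and within 50 kb of 38.9% and 37.1%. The cause of these changes was not tested. Unknown depth limits what an absence from a list can show. Other window sizes around motifs and gene starts were not run for want of the matching genome build.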
